A study of Homo sapiens with 8 samples.

Results

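The genes described here are the 55 that load and run the human DNA replication fork: the origin recognition complex (ORC), the licensing factors, the MCM helicase and its partners, the replicative DNA polymerases, the clamp loader and clamp, the single-strand binding protein RPA, and the proteins that rebuild chromatin and copy DNA methylation behind the fork. They were chosen by name, and every probe that the array annotation gives one of those symbols was taken. Of the 55 genes, 54 had at least 1 probe among 16922 named genes on the array, with 67 probes in all. The signal of 45 was high enough to be tested, out of 9377 genes and probes tested in the whole series.

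DNA replication begins at origins, which ORC marks and where CDC6 and CDT1 load the ring-shaped MCM2-7 helicase during G1 phase. CDC7 kinase and the cyclin-dependent kinases then turn the loaded ring into the active helicase by adding CDC45 and the GINS complex, and polymerases alpha, delta and epsilon copy the unwound strands. Many of these genes are transcribed mainly in late G1 and S phase, from promoters known to be bound by E2F factors.

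RNA came from SK-OV-3 and TOV-21G, established human ovarian carcinoma lines, 72 h after transfection with siRNA. Each line had 2 arrays with a scrambled siRNA, called control here, and 2 with an siRNA against CSE1L, called silenced, for 8 arrays in 4 groups. CSE1L encodes the nuclear export receptor of importin alpha, and the series asked what its loss does to expression. Beyond an experiment number, the sources used here do not say whether replicates were separate transfections, so the spread behind a p-value may be technical. The siRNA sequences are not given in the sources used here.

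Each array detected 9206 to 9820 of its 24531 probes, and the number of arrays limits the precision. Values are normalised log2 signals, on which a difference of 1 is a 2-fold difference, and a level can be compared between arrays but not between probes. CSE1L read 12.04 and 12.56 in SK-OV-3 control, 10.51 and 8.99 in SK-OV-3 silenced, 13.02 and 11.65 in TOV-21G control, and 8.80 and 7.72 in TOV-21G silenced arrays. The silenced arrays lay below the controls in both lines, but the difference passed the test in TOV-21G, where CSE1L fell by 4.08 (limma adjusted p = 0.0257), and not in SK-OV-3, where it was -2.55 (limma adjusted p = 0.262). That TOV-21G call was lost without TOV-21G control replicate 1 or 2, without TOV-21G silenced replicate 2 and in a fit of TOV-21G alone, with changes of -4.75 to -3.41 over the alternatives. The lines carried part of their known marks: ERBB2, amplified in SK-OV-3, was lower in TOV-21G control than in SK-OV-3 control arrays (-3.42, limma adjusted p = 1.93e-05), and CDKN2A, deleted in SK-OV-3, was detected on no SK-OV-3 array and on 1 TOV-21G array of each group. The epithelial keratins KRT8 and KRT18 were detected on all 8 arrays, and EPCAM was detected on none. Of markers of other cells, 0 of 3 endothelial genes, 1 of 4 leukocyte genes (CD14, with PTPRC undetected) and 2 of 3 fibroblast genes (COL1A1 and DCN) were detected. The summed raw signal of the fibroblast probes ranged from 2569.5 to 2652.1 in TOV-21G control, 2869.2 to 3371.2 in TOV-21G silenced, 837.19 to 847.54 in SK-OV-3 control and 1013.2 to 1078.7 in SK-OV-3 silenced arrays. For the leukocyte probes these ranges were 1086 to 1147.6, 1212.9 to 1304.4, 1030.6 to 1058.1 and 1009.5 to 1168.6 in the same order, and the part of these signals in the results was not tested.

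In TOV-21G, members of the origin, licensing, helicase, polymerase, clamp loader, chromatin assembly and DNA methylation groups fell after silencing. No member of the alternative clamp loader, PCNA and Okazaki fragment, fork protection or RPA groups passed. That split follows the threshold: FEN1 (-1.41), LIG1 (-1.19) and TIMELESS (-1.12) had larger differences than GINS3, which passed, and were called with the replicate block. DSCC1, undetected on both silenced arrays, also had a larger fitted difference than GINS3 (-1.14) but was not called with the block. PCNA, RNASEH2A, CHTF18 and the RPA subunits had smaller ones. Of the 45 tested, 16 fell and 0 rose (limma, adjusted p under 0.05), against 2.08% of all genes tested called lower and 1.09% called higher. The falls ran from 1.04 for GINS3 to 2.77 for CDC45, or from 2.06-fold to 6.83-fold. All but RPA3 had a fitted change below 0, where 49.5% of all genes did, and the median was -1.16 against 0.00438 for all genes. With CDC6, MCM10, POLA1 and DSCC1, undetected in silenced cells alone, at their lower bounds, ORC3, undetected there without a bound, at 0, and RFC1 left out, that median was -1.15. In 39 of 45 both silenced arrays lay below both control arrays, as for 24.8% of all genes, and in 0 both lay above (24.1%). At an unadjusted p under 0.05 there were 34 members, against 19.9% of all genes. RNA of whole cultures does not tell fewer cells of a kind from less RNA per cell.

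These calls did not outlast the loss of single TOV-21G arrays. All 16 were lost without TOV-21G control replicate 1, without TOV-21G control replicate 2, without TOV-21G silenced replicate 2, or with only the 4 arrays of the line. Without each of the other arrays limma called fewer members as well. A fit without 1 array leaves 1 array in a group, and fewer arrays leave less to call by construction for all genes. With 1 array left out the member median in TOV-21G stayed between -1.38 and -0.85. With the experiment number as a block there were 25, against 3.76% of all genes called lower: the same 16 with CDC6, MCM3, MCM5, RFC2, RFC4, RFC5, FEN1, LIG1 and TIMELESS. Within experiment 1, 42 of 45 members were lower in silenced cells with a median of -1.08, and within experiment 2 all 45 were, with a median of -1.20. The medians of all genes were 0.00545 and 0.00185 in that order, and their shares below 0 were not counted.

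**Figure D1:**
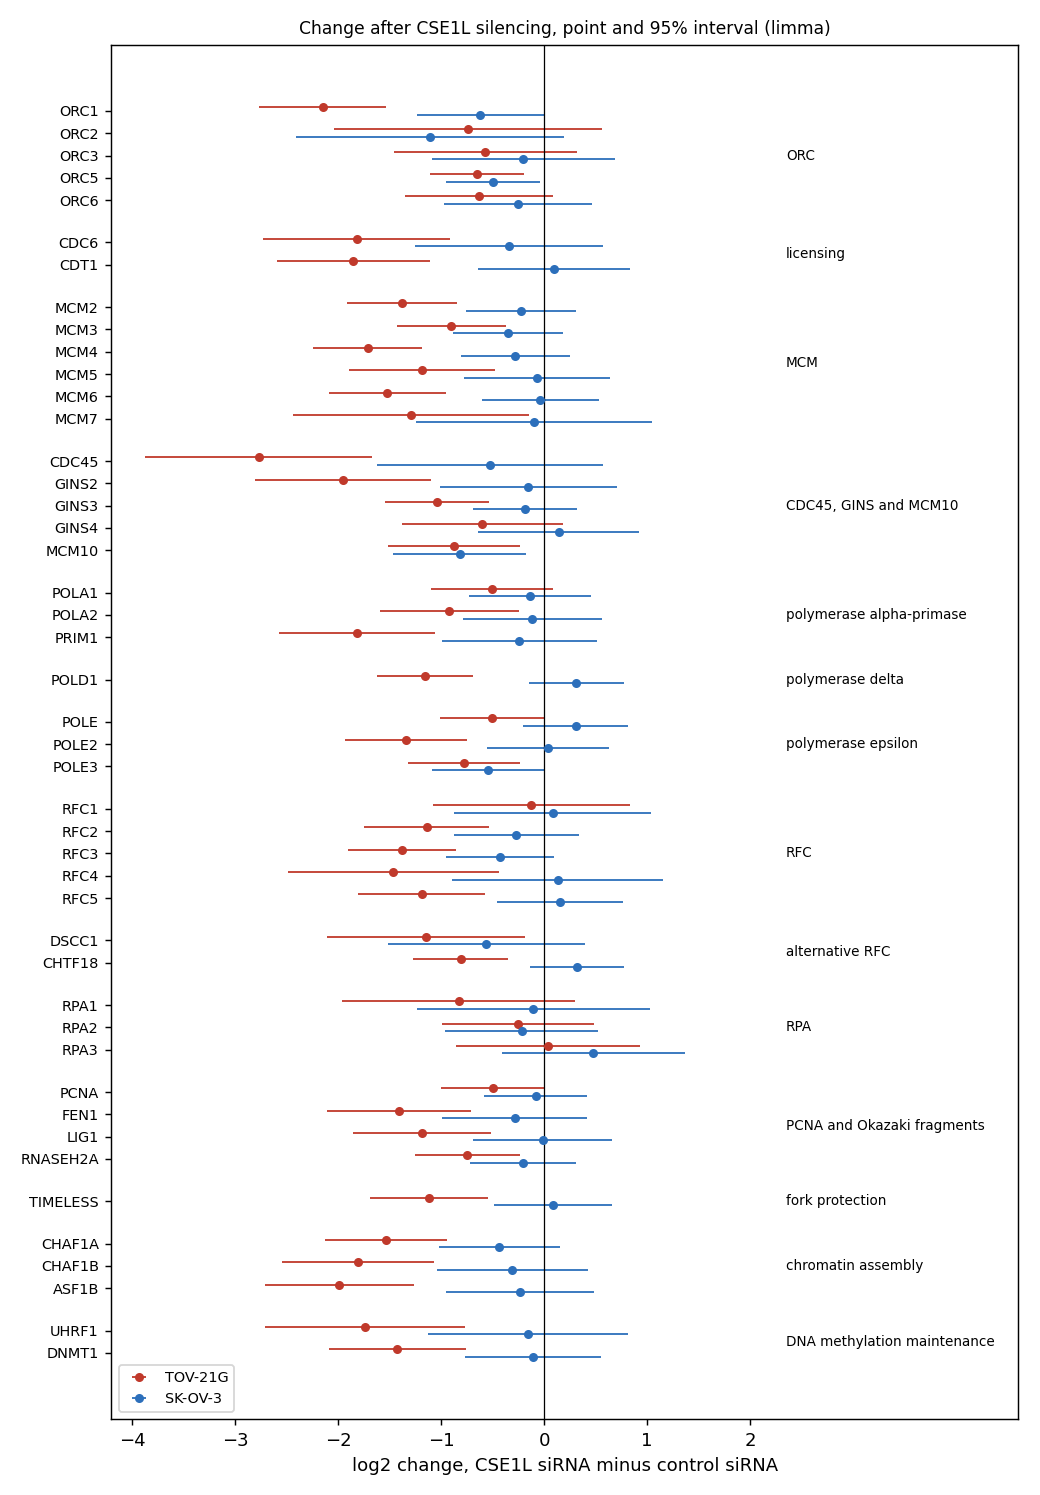
Log2 change after CSE1L silencing (horizontal axis, silenced minus control) of each tested replication gene, grouped by complex, with points for the limma estimate and lines for its 95% interval, in TOV-21G (red) and SK-OV-3 (blue), n = 2 arrays per group. The red points of 44 of 45 genes lie left of 0, down to -2.77 for CDC45, while the blue points run from -1.11 to 0.48.

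Among the origin recognition subunits, ORC1 was the member that fell. ORC1, the ATPase subunit that comes and goes with the cell cycle, read 10.54 and 10.52 in TOV-21G control and 8.63 and 8.13 in silenced arrays. The fall was 4.43-fold, without overlap of the groups: ORC1 fell by 2.15 (SE 0.27, limma adjusted p = 0.0176). The other 4 tested subunits did not pass. ORC2, a core subunit, read 8.11 and 8.28 in control and 8.19 and 6.73 in silenced arrays, so that one silenced array lay between the controls and the other far below (-0.74). ORC5 read 12.08 and 12.16 against 11.58 and 11.37, without overlap (-0.65, limma adjusted p = 0.127). ORC3 was detected on no silenced TOV-21G array and 1 of 2 control arrays, and no fold is given. ORC4 was detected on no array.

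Of the 2 tested licensing factors, CDT1 passed. CDT1, which brings the MCM ring to ORC, read 10.72 and 10.86 in TOV-21G control and 9.10 and 8.77 in silenced arrays, and fell by 1.85 (SE 0.32, limma adjusted p = 0.0291). CDC6, the ATPase that helps load the ring, read 7.15 and 7.57 in control arrays and was undetected on both silenced arrays. That makes its mean at least 1.82-fold lower, a bound on group means, here and below, that leaves out the spread of replicates. The limma adjusted p of CDC6 was 0.0540, short of the threshold. GMNN, the inhibitor of CDT1, and both subunits of the kinase that fires origins, CDC7 and DBF4, were detected on no array.

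All 6 subunits of the MCM ring were lower in both silenced TOV-21G arrays than in both controls, and 3 of them passed. MCM4 read 13.22 and 13.36 in control and 11.69 and 11.48 in silenced arrays and fell by 1.71 (SE 0.23, limma adjusted p = 0.0210). A second MCM4 probe, tested with all probes as themselves, fell by 1.87 (limma adjusted p = 0.0408). MCM6 read 13.58 and 13.44 against 12.20 and 11.77, a fall of 1.52 (limma adjusted p = 0.0257). For these helicase subunits the replicates of a group differed by far less than the groups. MCM2 read 13.24 and 13.39 in control and 11.93 and 11.94 in silenced arrays and fell by 1.38 (SE 0.23, limma adjusted p = 0.0262). MCM7 read 12.92 and 12.19 against 11.87 and 10.67, with replicates further apart, and did not pass (-1.29, limma adjusted p = 0.205), although its second probe did when all probes were tested (-1.86, limma adjusted p = 0.0485). MCM5 (-1.18) and MCM3, the smallest of the 6 at -0.90, did not pass either (limma adjusted p = 0.0841 and 0.0807). The median of the 6 was -1.33.

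CDC45, which joins the ring to form the working helicase, was the member with the largest fitted fall in TOV-21G, though not on the values normalised by the authors. It read 9.99 and 8.87 in TOV-21G control and 7.26 and 6.05 in silenced arrays and fell by 2.77 (SE 0.47, 6.83-fold, limma adjusted p = 0.0285). It was detected on only 1 of the 2 silenced arrays, and on the authors' values its change was -1.62, against -1.71 for ORC1. GINS2 read 10.33 and 10.29 against 8.80 and 7.91 and fell by 1.95 (SE 0.37, limma adjusted p = 0.0353). Its partner GINS3 read 11.43 and 11.61 against 10.42 and 10.53 and fell by 1.04 (SE 0.22, limma adjusted p = 0.0479). Of the 16 calls, that of GINS3 was lost in the most alternatives, 13 of 19. GINS4, at 8.12 and 7.60 against 7.20 and 7.33, had the smallest change of this group and did not pass (-0.60, limma adjusted p = 0.384). GINS1 was detected on no array, so the 4-subunit complex was seen in part. MCM10, which helps to start unwinding, was detected on both TOV-21G control arrays and on neither silenced array, which makes it at least 1.43-fold lower, short of the threshold (limma adjusted p = 0.136).

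**Figure D2:**
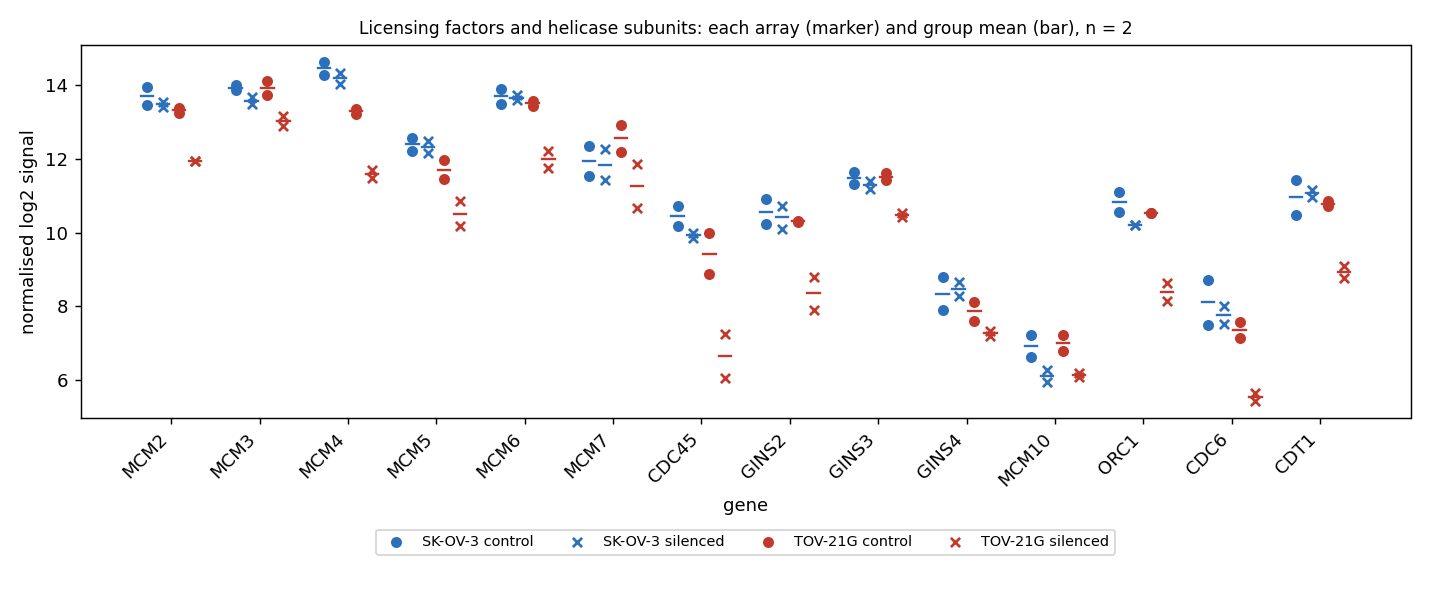
Normalised log2 signal (vertical axis) of the licensing factors and helicase subunits on each array, with control arrays as circles, silenced arrays as crosses and bars for group means (n = 2). Levels can be compared within a gene only. For the 6 MCM subunits and CDC45 both red crosses (TOV-21G silenced) lie below both red circles (TOV-21G control), for CDC45 at 7.26 and 6.05 against 9.99 and 8.87.

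The promoters of members that moved together were read for short motifs. RefSeq promoters (GRCh38.p14, 250 bases before to 50 after the first listed start) matched 48 of the 55 genes. An E2F motif, given by the letters TTTCCCGC, TTTCGCGC, TTTGCCGC or TTTGGCGC on either strand, occurred in 20 of the 48 (41.7%), against 908 of 27305 promoters in the table (3.33%) and 389 of 6931 of tested genes (5.61%). Among tested members it occurred in 8 of 15 that fell in TOV-21G (53.3%) and in 10 of 24 that did not pass (41.7%), and among all genes lower in TOV-21G in 23 of 145 (15.9%). The CCAAT motif, on either strand, was in 28 of 48 members (58.3%) against 35.7% of all promoters, in 7 of 15 members that fell (46.7%) and in 17 of 24 that did not pass (70.8%). The shares were not tested, and a match describes letters only. The promoters below belong to MCM6 and MCM2, the fallen members with most E2F matches, to CDC45, with the largest fitted fall, and to PCNA, the tested member nearest 0 that has an E2F match. Each is written 5′ to 3′ on the gene's strand, with E2F matches in capitals. CDC45 had no match to those E2F letters, though other forms were not searched, and has its 4 CCAAT matches (either strand) in capitals.
MCM6, chr2:135876394-135876693, minus strand: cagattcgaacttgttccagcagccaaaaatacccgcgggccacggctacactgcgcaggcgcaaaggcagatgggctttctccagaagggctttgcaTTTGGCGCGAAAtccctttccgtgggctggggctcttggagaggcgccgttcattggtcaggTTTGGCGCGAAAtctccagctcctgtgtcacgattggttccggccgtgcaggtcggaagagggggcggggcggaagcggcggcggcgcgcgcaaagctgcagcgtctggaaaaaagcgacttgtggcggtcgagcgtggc
MCM2, chr3:127598161-127598460, plus strand: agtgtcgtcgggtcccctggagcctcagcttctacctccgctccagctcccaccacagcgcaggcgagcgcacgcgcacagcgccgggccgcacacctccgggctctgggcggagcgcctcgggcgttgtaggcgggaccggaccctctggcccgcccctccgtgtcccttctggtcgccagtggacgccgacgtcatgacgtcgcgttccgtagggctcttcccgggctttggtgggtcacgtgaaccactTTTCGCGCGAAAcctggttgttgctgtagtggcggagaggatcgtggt
CDC45, chr22:19479670-19479969, plus strand: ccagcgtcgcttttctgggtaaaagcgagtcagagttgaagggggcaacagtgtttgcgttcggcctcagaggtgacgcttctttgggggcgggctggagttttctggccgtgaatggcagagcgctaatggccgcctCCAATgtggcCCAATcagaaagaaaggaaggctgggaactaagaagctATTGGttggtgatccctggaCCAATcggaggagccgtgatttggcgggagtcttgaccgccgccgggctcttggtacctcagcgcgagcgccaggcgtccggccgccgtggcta
PCNA, chr20:5126573-5126872, minus strand: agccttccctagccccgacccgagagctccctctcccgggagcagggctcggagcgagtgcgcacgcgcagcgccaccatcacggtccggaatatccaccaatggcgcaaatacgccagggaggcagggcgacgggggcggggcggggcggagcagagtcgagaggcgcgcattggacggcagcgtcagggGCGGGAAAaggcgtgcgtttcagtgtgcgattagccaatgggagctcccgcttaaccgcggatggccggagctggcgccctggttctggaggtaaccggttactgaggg
In MCM6 the 4 matches make up 2 stretches that read as E2F letters on both strands, beginning 152 and 90 bases before the start. The 2 matches of MCM2 overlap in 1 such stretch just after the start. PCNA has 1 match on the opposite strand, 59 bases before its start, and CDC45 has CCAAT at 112, 102, 64 and 44 bases before its start.

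In each replicative polymerase 1 tested subunit passed. PRIM1, the primase that makes the RNA primer, read 8.66 and 7.89 in TOV-21G control and 6.56 and 6.35 in silenced arrays, and fell by 1.82 (SE 0.33, limma adjusted p = 0.0311). It was detected on 1 of the 2 silenced arrays, and its change was -0.92 on the values normalised by the authors. POLA1, the catalytic subunit of polymerase alpha, was undetected on both silenced arrays and at least 1.25-fold lower, short of the threshold (limma adjusted p = 0.328). POLA2, the accessory subunit, had a difference of -0.92 (limma adjusted p = 0.136), and PRIM2, the large primase subunit, was detected on no array.

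POLD1, the catalytic subunit of lagging-strand polymerase delta, read 10.49 and 10.55 in TOV-21G control and 9.38 and 9.35 in silenced arrays. It fell by 1.16 (SE 0.20, limma adjusted p = 0.0295), and replicates of each group differed by far less than the groups. It was the only tested subunit of that polymerase, since POLD3 was detected on no array and POLD2 was not analysed here. POLE2, an accessory subunit of leading-strand polymerase epsilon, read 11.22 and 10.82 against 9.74 and 9.62 and fell by 1.34 (SE 0.26, limma adjusted p = 0.0374). POLE, the catalytic subunit itself, read 10.32 and 10.23 against 9.74 and 9.81. Its groups did not overlap, but the difference of -0.50 was the smallest of the 3 and did not pass (limma adjusted p = 0.260), nor did that of POLE3, a histone-fold subunit (-0.78).

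Replication factor C (RFC) loads the PCNA clamp, and 1 of its 5 subunits passed, or 4 with the replicate block. RFC3 read 9.36 and 9.58 in TOV-21G control and 8.14 and 8.04 in silenced arrays and fell by 1.38 (SE 0.23, limma adjusted p = 0.0261). Its other 2 probes past the filter, detected on 2 and 3 arrays, gave -0.11 and 0.39. RFC4, RFC5 and RFC2 had differences of -1.46, -1.19 and -1.14 that did not pass (limma adjusted p = 0.126, 0.0574 and 0.0614). A second RFC4 probe gave -0.67. RFC1, the large subunit, was undetected in both TOV-21G groups, and no fold is given. Of the alternative loaders, CHTF18 read 9.31 and 9.11 against 8.37 and 8.42, without overlap (-0.81, limma adjusted p = 0.0707). DSCC1, its partner in cohesion, was undetected on both silenced arrays and at least 1.62-fold lower (limma adjusted p = 0.182).

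Of the clamp, the Okazaki fragment enzymes and the single-strand binding protein, 0 of 7 genes passed. PCNA, the sliding clamp, read 9.72 and 9.65 in TOV-21G control and 9.21 and 9.16 in silenced arrays, a difference of -0.50 that did not pass (limma adjusted p = 0.255). A second probe gave -0.30. FEN1, the flap nuclease of Okazaki fragments, read 13.00 and 12.93 against 11.79 and 11.31 and came closest to passing among the enzymes that finish them (-1.41, limma adjusted p = 0.0529). The ligase LIG1 (-1.19) and the RNase H2 subunit RNASEH2A (-0.74) did not pass. The 3 RPA subunits had no unadjusted p under 0.05. RPA2 read 11.29 and 11.67 in control and 11.58 and 10.89 in silenced arrays, and RPA3 read 10.36 and 9.80 against 10.63 and 9.59, so that the groups overlapped for both (-0.25 and 0.04). RPA1 had the largest difference of the 3 (-0.83, limma adjusted p = 0.406) and was detected on 1 of the 2 silenced arrays. The signs of RFC1, RPA2 and RPA3 turned in 2, 1 and 3 alternatives. TIMELESS, which steadies paused forks, read 11.53 and 11.27 against 10.50 and 10.07 (-1.12, limma adjusted p = 0.0560), and its partners TIPIN and CLSPN were detected on no array.

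All 3 chromatin assembly genes fell, with a median of -1.81. ASF1B, a histone chaperone, read 9.79 and 9.32 in TOV-21G control and 7.66 and 7.47 in silenced arrays and fell by 1.99 (SE 0.31, limma adjusted p = 0.0257). CHAF1B and CHAF1A encode subunits of CAF-1, which places histones on new DNA. CHAF1B read 9.73 and 9.24 against 8.11 and 7.25, a fall of 1.81 (SE 0.32, limma adjusted p = 0.0298). CHAF1A read 8.59 and 8.29 against 7.14 and 6.67, a fall of 1.53 (SE 0.25, limma adjusted p = 0.0261), or -0.84 on the values normalised by the authors. Of the pair that copies CpG methylation, the methyltransferase DNMT1 read 13.13 and 12.62 against 11.80 and 11.11 and fell by 1.42 (SE 0.29, limma adjusted p = 0.0416). UHRF1, which brings DNMT1 to new DNA, had a larger difference, -1.74, that did not pass (limma adjusted p = 0.0689).

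Most members were well detected: 36 were detected on all 8 arrays, and 14 of these fell in TOV-21G (38.9%), against 1.89% called lower among the 6723 genes detected on all 8 arrays. Of those 36, 33 had both silenced TOV-21G arrays below both controls (91.7%), against 25.5% of the 6723. The arrays of a group differed in the normalised values of the members, and the shares of all genes were not counted. TOV-21G silenced replicate 2 was the lower of its pair for 38 of 45 members, with a median gap of -0.42, and TOV-21G control replicate 2 was the lower for 30 of 45 (-0.14). SK-OV-3 control replicate 2 was the lower for 34 of 45 (-0.33), while SK-OV-3 silenced replicate 2 was the higher for 26 of 45 (0.13). The 9 members with a probe that were not tested had raw signals of 113.62 to 195.75 and detection p-values of 0.0271 or more, so nothing is known of their direction.

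**Figure D3:**
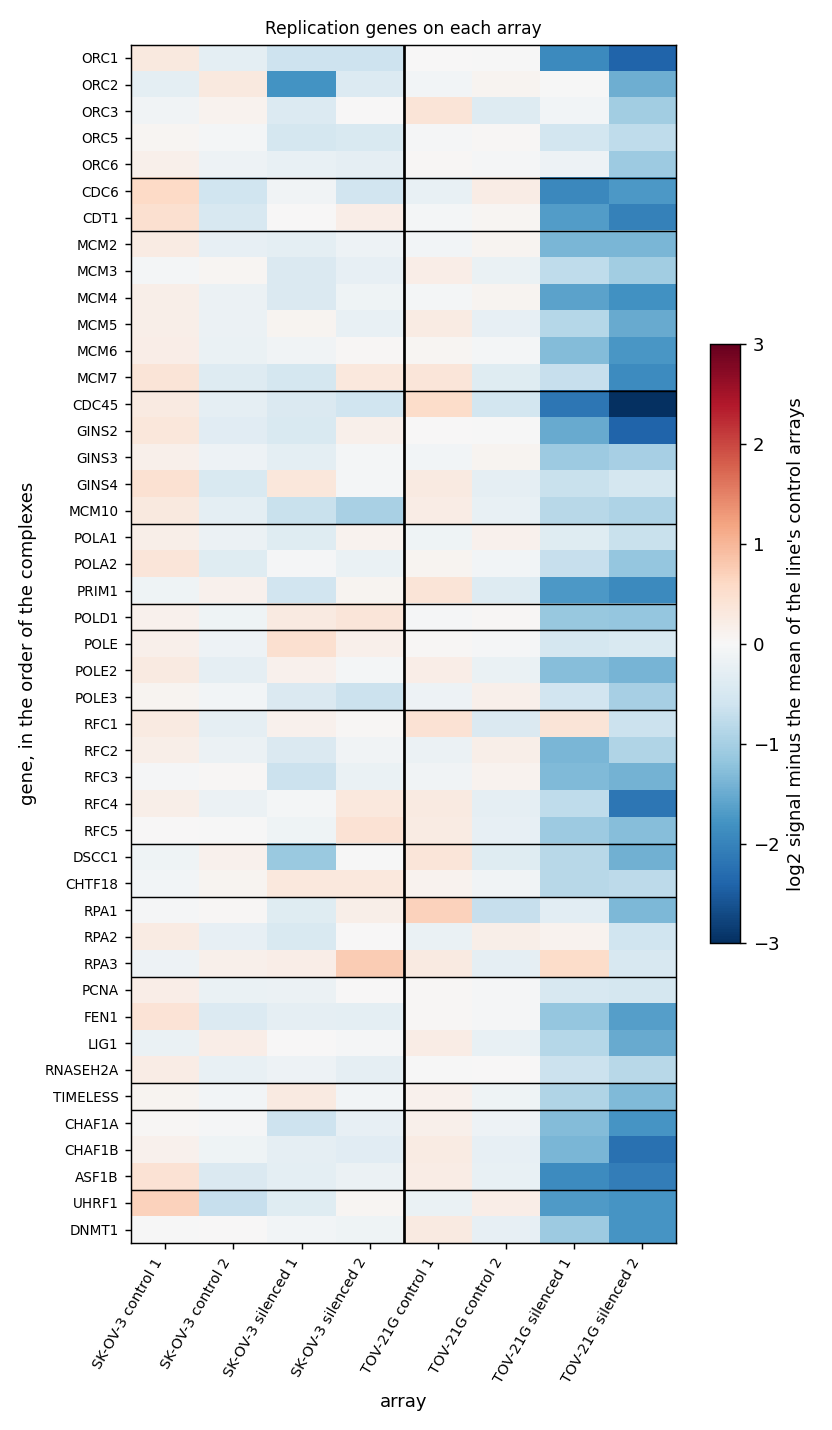
Each row is a tested replication gene and each column an array; the colour gives the normalised log2 signal minus the mean of that line's 2 control arrays (blue lower, red higher), and lines separate the complexes. The TOV-21G silenced columns are blue for most genes and darker for replicate 2, while the SK-OV-3 silenced columns are mixed.

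In SK-OV-3, 0 of 45 members passed in limma, where 0.00% of all genes were called lower and 0.0107% higher, and 4 members had an unadjusted p under 0.05, against 10.0% of all genes. The fitted change was below 0 for 34 of 45, against 51.0% of all genes, and the median was -0.18, or 0.03 without SK-OV-3 control replicate 1 and -0.38 without SK-OV-3 control replicate 2. Silenced arrays lay wholly below the controls for 12 members (21.2% of all genes) and wholly above for 3 (21.1% of all genes). Those 3 were POLD1, CHTF18 and RPA3. The experiments differed: 39 of 45 were lower in silenced cells within experiment 1 (median -0.44) and 19 of 45 within experiment 2 (median 0.09). For all genes these medians were -0.00232 and -0.0103, and the shares below 0 were not counted.

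Members that fell in TOV-21G had smaller differences in SK-OV-3, none past the test. MCM6 read 13.90 and 13.49 in SK-OV-3 control and 13.59 and 13.72 in silenced arrays, with overlap, a difference of -0.04 (95% interval -0.60 to 0.53). CDC45 read 10.71 and 10.18 against 10.00 and 9.84, without overlap but with a smaller gap (-0.52, interval -1.62 to 0.57). CDT1 read 11.44 and 10.49 against 10.96 and 11.16, with the silenced arrays between the controls (0.10). ORC1 read 11.11 and 10.55 against 10.21 and 10.21, without overlap (-0.62, limma adjusted p = 0.495). The largest fitted difference was that of ORC2, at 8.72 and 9.30 against 7.21 and 8.59 (-1.11, limma adjusted p = 0.565), and the smallest adjusted p was that of MCM10, 0.377, undetected on both silenced arrays and on 1 control array and at least 1.23-fold lower. For 31 members the 95% interval stayed above a 2-fold fall, and for 14 it reached one, so for those 14 the precision does not show whether a fall of that size took place.

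**Figure D4:**
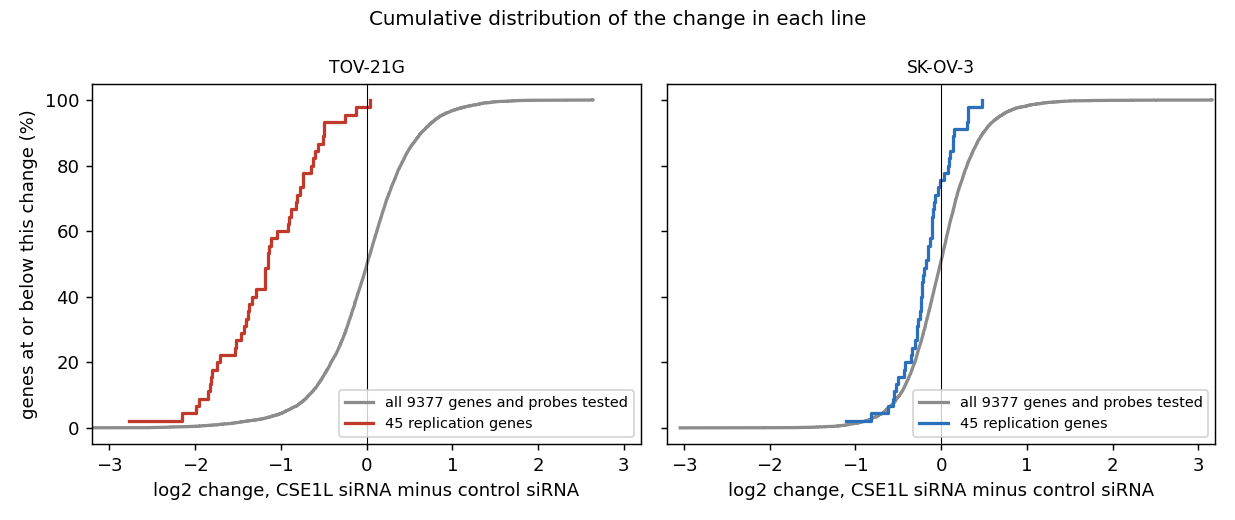
Share of genes (vertical axis, percent) at or below each log2 change after silencing (horizontal axis) for the 45 replication genes (coloured) and all 9377 genes and probes tested (grey), in TOV-21G (left panel) and SK-OV-3 (right panel). The TOV-21G curve of the replication genes is shifted left, with a median of -1.16 against 0.00438, and the SK-OV-3 curve lies near the grey curve, with a median of -0.18. The horizontal axis is cut, so a few genes beyond its ends are not drawn.

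The difference between the lines was tested directly. It passed for 0 of 45 members in limma, as for 0.00% of all genes in each direction, while 27 members had an unadjusted p under 0.05, against 10.1% of all genes. The TOV-21G change was the lower one in 44 of 45 members, against 49.3% of all genes, with a median difference of -1.12, and ORC2 was the exception (0.37). The 95% interval of the difference, taken one gene at a time, ran from -3.80 to -0.70 for CDC45 and from -1.58 to -0.14 for GINS3. The smallest adjusted p was that of POLD1, which read 10.64 and 10.37 in SK-OV-3 control and 10.77 and 10.87 in silenced arrays, above both controls, while it fell in TOV-21G (difference -1.47, SE 0.28, limma adjusted p = 0.172). RPA2 had the difference nearest 0, -0.03. Across the 45 members the changes in the lines had a Spearman rho of 0.24, and across all 9377 genes one of 0.29, with the arrays of a line shared by all genes.

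Taking the mean of both lines, 5 members fell and 0 rose in limma, against 1.23% of all genes called lower and 0.917% higher. The 5 were ORC1 (-1.38, limma adjusted p = 0.0287), MCM4 (-1.0, 0.0334), RFC3 (-0.90, 0.0416), CHAF1A (-0.98, 0.0423) and ASF1B (-1.11, 0.0499), all also called in TOV-21G. Their SK-OV-3 changes were -0.62, -0.28, -0.43, -0.43 and -0.23 in that order, and none of these passed. At an unadjusted p under 0.05 there were 32 members in the mean, against 20.6% of all genes. With the replicate block 15 were called, against 5.52% of all genes in either direction. The calls of MCM4, RFC3, CHAF1A and ASF1B were lost without any 1 array, and that of ORC1 without each array but TOV-21G silenced replicate 1. Such fits leave 1 array in a group, so that less can pass by construction for all genes. Over the alternatives the mean change ran from -1.53 to -1.14 for ORC1 and from -1.32 to -0.76 for ASF1B.

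The lines already differed in some replication genes under the control siRNA, where 16.7% of all genes were lower and 17.1% higher in TOV-21G. ORC5 was higher in TOV-21G, at 12.08 and 12.16 against 11.37 and 11.25 in SK-OV-3 (0.81, limma adjusted p = 0.0158). The 6 that were lower included CHAF1A, at 8.59 and 8.29 against 10.10 and 10.02 (-1.62, limma adjusted p = 0.00187), TIMELESS, at 11.53 and 11.27 against 12.89 and 12.74 (-1.41, 0.00328), and MCM4, at 13.22 and 13.36 against 14.64 and 14.29 (-1.17, 0.00557). These 3 passed in every one of the 18 alternatives run. The others were CHTF18 (-0.97, 0.00694), POLA1 (-0.98, 0.0204) and FEN1 (-0.92, 0.0492). The counts of 1 higher and 6 lower among 45 are no larger than the shares of all genes called, so they say nothing particular of the members. Of the 45, 35 lay below 0, against 54.0% of all genes, with a median of -0.30 against -0.07. Both TOV-21G control arrays lay below both SK-OV-3 controls for 23 members (36.9% of all genes) and above for 2 (31.6%). With the replicate block 16 were called, against 41.7% of all genes in either direction. Fewer were called without TOV-21G control replicate 1 or 2, which leaves 1 array in that group. These comparisons share the control arrays with the silencing comparisons above.

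Other replication genes, from a list of 31, were read beside the members. Of the 31, 18 were tested, and in TOV-21G 5 fell and 0 rose in limma, with a median of -0.82, or -0.74 with DBF4B at its bound and WDHD1, undetected on both silenced arrays and without a bound, at 0. Of all genes tested, 2.08% were called lower and 1.09% higher. TICRR, needed to add CDC45 to the ring, read 8.72 and 8.35 in TOV-21G control and 6.67 and 6.53 in silenced arrays and fell by 1.94 (SE 0.22, limma adjusted p = 0.0149). TOP2A, which untangles the daughter strands, read 14.41 and 14.11 against 12.31 and 11.35 and fell by 2.44 (limma adjusted p = 0.0203). The PCNA-binding factor PCLAF read 14.69 and 14.72 against 13.16 and 12.74 and fell by 1.76 (limma adjusted p = 0.0206). The histone chaperone NASP fell by 1.76 (limma adjusted p = 0.0257) and was detected on 1 of the 2 silenced arrays, and DBF4B, a further partner of CDC7, was at least 1.75-fold lower (limma adjusted p = 0.0262). In SK-OV-3 0 of the 18 passed in limma, with 2 at an unadjusted p under 0.05, against 10.0% of all genes. In the mean of both lines limma called 4 lower and 0 higher, against 1.23% and 0.917% of all genes. The 4 were TICRR, TOP2A, PCLAF and NASP, with SK-OV-3 changes of -0.28, -0.10, -0.67 and -0.73 in that order.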

How the data were processed

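The deposited table used here gives bead intensity per probe and array, linear and not normalized, per the file headers, and BeadStudio 2 made it, per the submitters' processing notes. Per the file headers, a detection p-value stood beside each intensity and ranks it against negative control beads. The authors also deposited normalized intensity, whose method the sources used here do not state, with the same probe order in every array (Spearman rho 1).

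Background was removed with limma 3.58.1 (R 4.3.3), by normexp fitted through those p-values with an offset of 16, before log2 and quantile normalization. Probes with a detection p under 0.01 on at least 2 of 8 arrays were kept, and the probe with the highest mean stood for its gene. limma fitted 4 group means to all arrays (4 residual, 3.87 prior degrees of freedom), and p-values were adjusted by Benjamini-Hochberg over all 9377 genes and unnamed probes, with a threshold of 0.05. A gene undetected on both arrays of 1 group has a fold of group means bounded by the lowest detected signal there. The bound holds for this processing only and leaves out the spread of replicates.

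The members and lists were chosen with earlier results of these data known. The named genes are CSE1L, members past the threshold in any comparison, the tested members with the largest and smallest TOV-21G change of each complex, untested members, and up to 5 list genes past the threshold. Others were named after their values were seen. Deviations of same-numbered arrays from their group means correlated at 0.126 within SK-OV-3 and 0.561 within TOV-21G, but at -0.137 and -0.183 between the lines. For the replicate block and the comparisons within an experiment, the labels' experiment numbers were therefore taken to pair arrays within a line. That pairing is left uncertain by 1 correlation per line, and the main fit did not use it. The steps were tested on simulated data. Results were recomputed with the replicate block, without each array, with median scaling, no background correction, an offset of 50, the authors' values, no filter, detection on all 8 arrays, all probes, a threshold of 0.01, a trend with robust spread, and the 4 arrays of a line alone. Figures were drawn with matplotlib 3.10.9.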

Additional observations from a re-analysis of the deposited data

Results flagged for a closer look

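POLD1 and CHTF18 drew attention because both silenced arrays lay below both controls in TOV-21G and above both controls in SK-OV-3. Of all genes tested, 24.8% lay below in TOV-21G and 21.1% above in SK-OV-3, and the share that did both was not counted. The pattern is therefore not shown to be more common among members than among all genes. The POLD1 change in TOV-21G minus that in SK-OV-3 was -1.47 (SE 0.28, limma adjusted p = 0.172), from -1.16 and 0.32. For CHTF18 this difference was -1.13 (SE 0.28, limma adjusted p = 0.227), from -0.81 and 0.32, with arrays at 10.10 and 10.26 in SK-OV-3 control against 10.50 and 10.49 in silenced cells. Neither difference passed the test.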

How the results depend on the processing

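The counts of members called were 16 in TOV-21G, 0 in SK-OV-3, 0 for the difference between the lines, 5 for the mean and 7 between the controls. In SK-OV-3 and for the difference limma called 0 under every alternative run. The counts for TOV-21G, the mean and the controls were, in that order, 25, 15 and 16 with the replicate block, 19, 8 and 4 with median scaling, 23, 17 and 11 with no background correction, and 20, 9 and 8 with an offset of 50. They were 24, 17 and 9 on the authors' values, 14, 3 and 6 with no filter, 22 of 36, 15 and 7 with detection on all 8 arrays, and 17, 4 and 7 with all probes. They were 0, 0 and 4 at an adjusted p of 0.01 and 25, 18 and 9 with a trend and robust spread, and the TOV-21G count was 0 with only that line's 4 arrays. Leaving out 1 array gave 0 to 13, 0 to 3 and 3 to 9. Of all genes, limma called 297, 201 and 3166 higher or lower for TOV-21G, the mean and the controls in the main fit. These were 590, 518 and 3906 with the replicate block, 297, 191 and 2775 with median scaling, and 527, 464 and 3375 without background correction. They were 422, 297 and 3286 with offset 50, 419, 389 and 3015 on the authors' values, and 238, 140 and 3064 with no filter. Most of these totals moved too, so a changed member count alone does not set the members apart. For the other alternatives no totals are given here, so their member counts cannot be set against all genes. The causes were not tested, except that the stricter threshold and fewer arrays leave less to call by construction. No call changed its sign. The member median in TOV-21G stayed between -1.38 and -0.84 over all alternatives. Median scaling moved the median of all genes by -0.16 in SK-OV-3, -0.11 in the mean and 0.10 in the difference. CDC45, PRIM1 and CHAF1A came as near to 0 as -1.62, -0.92 and -0.84 in TOV-21G. No fit had the slide as a block, since no slide is named in the sources used here. With 2 arrays a group, and 9 members at background on every array, small changes of weak genes could not be seen.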

Other observations

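Genes that watch over or switch on replication were read from the same arrays. Of 12 replication checkpoint genes 8 were tested in TOV-21G, with a median of -0.34. CDC25A, the phosphatase that activates cyclin-dependent kinase at S-phase entry, read 11.56 and 11.70 in control and 10.32 and 10.27 in silenced arrays, and fell by 1.33 (limma adjusted p = 0.0230). It was the 1 member called, where 2.08% of all genes were called lower. In SK-OV-3 CDC25A read 11.78 and 11.73 against 10.85 and 10.87, without overlap, but did not pass (-0.90, limma adjusted p = 0.212). Its difference between the lines was -0.43 (limma adjusted p = 0.650). In the mean of both lines it passed (-1.115, limma adjusted p = 0.0281), where 1.23% of all genes were called lower. CHEK1, the checkpoint kinase, had a difference of -0.77 that did not pass (limma adjusted p = 0.126).

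Of 13 E2F and pocket protein genes 10 were tested, with a median of -0.49, and 2 fell in TOV-21G, beside the same 2.08% of all genes. E2F2, an activating E2F, read 11.62 and 11.45 in control and 9.56 and 9.21 in silenced arrays and fell by 2.15 (limma adjusted p = 0.0230). RBL1, which encodes the pocket protein p107, was undetected on both silenced arrays and at least 4.71-fold lower (limma adjusted p = 0.0149). In SK-OV-3 limma called 0 of the 8 and 0 of the 10, with 1 and 0 at an unadjusted p under 0.05, against 10.0% of all genes.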
